A study of Rattus norvegicus with 12 samples.

Results

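Ifng, Il2, Tnf and Il10 are 4 cytokine genes that were followed across T cells from 4 compartments of rats with experimental autoimmune encephalomyelitis, in which the immune system attacks the brain and spinal cord (the central nervous system, CNS). They were selected by Ensembl identifier (ENSRNOG00000007468 for Ifng, ENSRNOG00000017348 for Il2, ENSRNOG00000000837 for Tnf and ENSRNOG00000004647 for Il10), which are 4 of the 26405 gene identifiers in each count file. The cells were CD4+ and recognised myelin basic protein, a component of the sheath around axons. They expressed green fluorescent protein and came from wild type Lewis rats, by cold flow sorting. RNA was sequenced from 3 libraries each of CNS parenchyma, spinal cord meninges, cerebrospinal fluid (CSF) and blood. All 4 groups hold the same fluorescent myelin-specific cells in animals with the disease, so blood is the comparison group and no cells from healthy rats are among the samples. The labels give no age, day of disease, number of animals or pooling, so p-values reflect only how far these libraries scatter, and that scatter may be technical. The files hold no gene names, so markers of T cells or of other cells that make these cytokines could not be looked up, and their part in the results was not tested.

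Interferon-gamma, encoded by Ifng, is the signature cytokine of type 1 helper T cells and acts on macrophages and other cells that present antigen. Interleukin-2, encoded by Il2, is secreted by T cells shortly after their antigen receptor is engaged and drives T cell growth. Tumour necrosis factor, encoded by Tnf, is a proinflammatory cytokine that both T cells and myeloid cells make, and interleukin-10, encoded by Il10, restrains macrophages and inflammatory T cells and limits encephalomyelitis in mice. Myelin-specific T cells meet antigen-presenting cells in the meninges and the parenchyma, where they can be stimulated again. The comparisons ask where along this route the cells carry cytokine RNA.

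All 4 genes had their highest levels in T cells of the CNS parenchyma. Ifng and Il10 were higher in parenchyma than in meninges, higher in meninges than in CSF and higher in CSF than in blood. Tnf followed the same order from parenchyma through meninges to CSF, but its CSF and blood levels were not told apart. Il2 was sparse outside the parenchyma. The 3 parenchyma libraries held 414 Il2 reads in all, against 47 in meninges, 20 in CSF and 18 in blood. In these bulk libraries, fewer cells making a cytokine and less RNA per cell cannot be told apart.

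As a description, the promoters of the 4 genes were read for short motifs of factors that act on cytokine genes in stimulated T cells. Why the 4 genes were highest in parenchyma was not tested. Of the 4 genes, Ifng, Il2 and Tnf matched a RefSeq promoter on the GRCr8 build, and Il10 did not. In the 250 bases before the annotated start, on both strands, the search covered the TATA box (TATAAA), the core bound by NFAT (GGAAA, or TTTCC on the other strand), the AP-1 site (TGANTCA) and a loose kappaB site, read as GGG and CC with 5 bases between them. The sequences run 5′ to 3′ on the gene's strand from 250 bases before the annotated start to the end of the TATAAA match. Capitals mark every match. They cover chr7:55788930-55789046 (plus strand) for Ifng, chr2:121937732-121937922 (minus strand) for Il2 and chr20:3626435-3626644 (plus strand) for Tnf.
Ifng: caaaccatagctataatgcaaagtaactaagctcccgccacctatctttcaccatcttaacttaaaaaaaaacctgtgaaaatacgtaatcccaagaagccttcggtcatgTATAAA
Il2: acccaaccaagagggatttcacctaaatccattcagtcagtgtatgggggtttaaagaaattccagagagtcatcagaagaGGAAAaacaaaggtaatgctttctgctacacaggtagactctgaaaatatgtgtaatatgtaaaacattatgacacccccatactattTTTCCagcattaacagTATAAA
Tnf: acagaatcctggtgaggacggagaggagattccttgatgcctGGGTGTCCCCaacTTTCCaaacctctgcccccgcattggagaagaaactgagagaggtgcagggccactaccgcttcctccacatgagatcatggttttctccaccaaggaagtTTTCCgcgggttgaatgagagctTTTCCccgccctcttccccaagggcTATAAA
The letters TATAAA occurred in all 3 promoters, as in 12.9% of 33469 rat promoters of the same length. They ended 133 bases before the annotated start of Ifng, 59 before that of Il2 and 40 before that of Tnf. Whether these letters act as a TATA box was not tested. The GGAAA core occurred at 1 place in Ifng, 2 in Il2 and 3 in Tnf, and 56.9% of all promoters hold at least 1. The kappaB letters occurred at 1 place in Ifng and 1 in Tnf, as in 42.3% of all promoters, and the AP-1 letters in none of the 3, as against 6.34% of all promoters. In Ifng the GGAAA match lay inside the kappaB match, 33 to 24 bases before the annotated start and thus beyond the printed stretch. These letters are a description of the window and show no binding.

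Levels below are CPM, reads of a gene per fixed library total after adjustment for composition. They are compared for 1 gene between compartments and not between genes, since the lengths of the counted transcripts were not used here. A gene was called different when the edgeR quasi-likelihood test gave a p under 0.05 after Benjamini-Hochberg adjustment across the 11498 genes tested. Ifng and Tnf reached the cutoff of the filter on low counts in all 12 libraries. Il10 reached it in the 9 CNS libraries and in no blood library, and Il2 in all 3 libraries of parenchyma alone, so each could be tested only because of the compartments where it is high. Each library held between 11277725 and 22056664 gene counts, and 3 reads corresponded to 0.135 to 0.261 CPM. Reads aligned to several places made up 61.4% of all entries in meninges replicate 2 and 65.2% in blood replicate 3, against 35.8% to 43.9% in the other 10 libraries. Meninges replicate 3 had at least 1 read for 18299 genes, against 14525 to 16096 in the other 11 libraries.

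**Figure D1:**
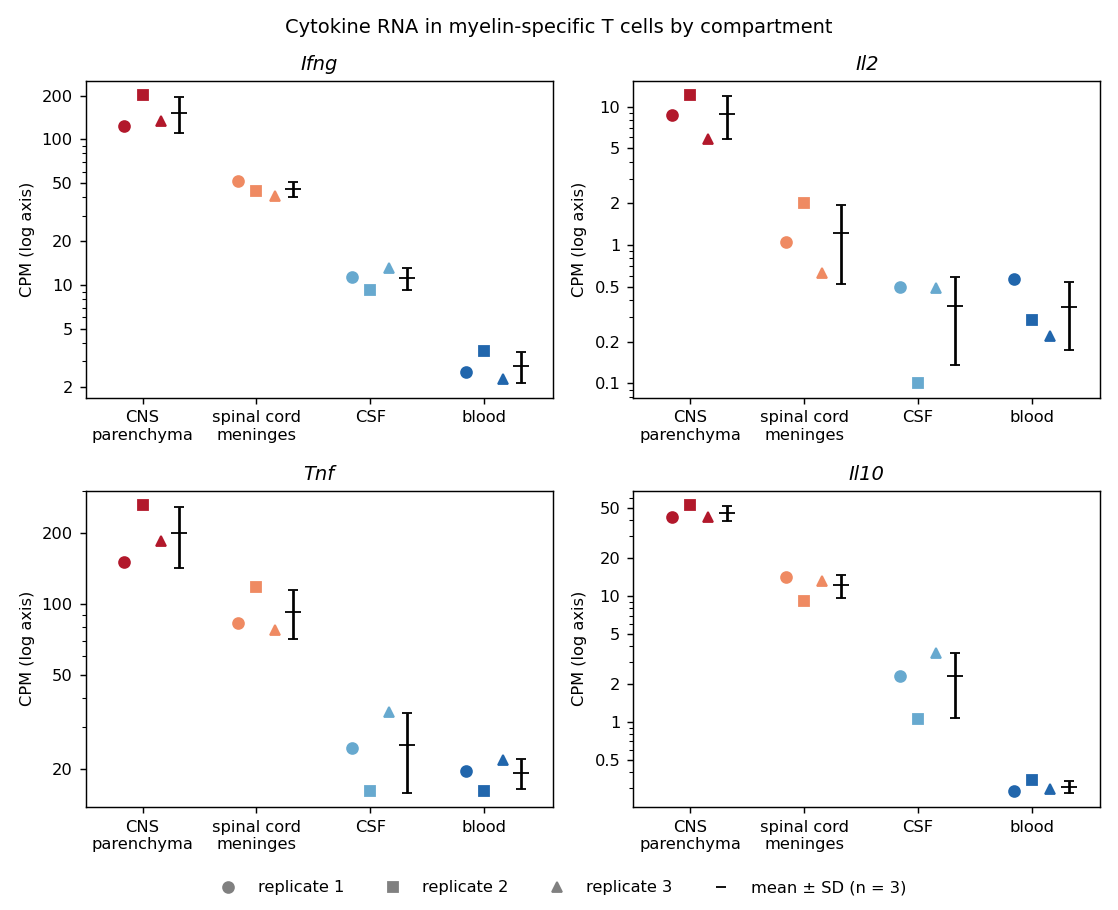
CPM of each cytokine gene (log axis) in every library, with compartments from CNS parenchyma to blood along the horizontal axis, marker shapes for the library numbers and the mean ± SD (n = 3) beside each group. The parenchyma libraries stand highest in all 4 panels, and CSF and blood libraries overlap for Il2 and Tnf.

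Ifng was highest in parenchyma, followed by meninges, CSF and blood. It stood at 124, 200.3 and 133 CPM in the parenchyma libraries and at 51.7, 44.3 and 40.7 CPM in the meninges libraries. The CSF libraries held 11.4, 9.19 and 13.1 CPM, and the blood libraries 2.54, 3.55 and 2.28 CPM, on 31 to 62 reads. No library of 1 compartment reached into the range of another.

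The mean Ifng level was 153 ± 41.6 CPM (SD, n = 3) in parenchyma, 45.6 ± 5.64 in meninges, 11.2 ± 1.96 in CSF and 2.79 ± 0.668 in blood. Against blood Ifng was higher in parenchyma by a log2 fold of 5.75 (SE 0.23, adjusted p = 1.48e-09, edgeR), in meninges by 4.01 (SE 0.23, adjusted p = 6.63e-08) and in CSF by 1.98 (SE 0.25, adjusted p = 4.76e-05). Between the CNS sites the log2 fold was 2.03 for meninges against CSF (SE 0.19, adjusted p = 8.00e-05), 1.75 for parenchyma against meninges (SE 0.18, adjusted p = 0.000121) and 3.77 for parenchyma against CSF (SE 0.20, adjusted p = 7.04e-08). Ifng in meninges was thus 4.07-fold that in CSF, and in parenchyma 3.35-fold that in meninges.

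Il10, the gene of the regulatory cytokine in this group, had the widest range of the 4. It had 42.2, 53.0 and 42.5 CPM in parenchyma, 14.2, 9.23 and 13.2 CPM in meninges and 2.34, 1.05 and 3.52 CPM in CSF. In blood it was near the limit of detection, with 5, 6 and 4 reads, or 0.283, 0.343 and 0.294 CPM. The 4 compartments did not overlap.

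Means were 45.9 ± 6.19 CPM (SD, n = 3) in parenchyma, 12.2 ± 2.62 in meninges, 2.30 ± 1.23 in CSF and 0.307 ± 0.0322 in blood. Il10 exceeded its blood level by a log2 fold of 7.19 in parenchyma (SE 0.36, adjusted p = 7.48e-09, edgeR), by 5.27 in meninges (SE 0.40, adjusted p = 6.20e-07) and by 2.82 in CSF (SE 0.50, adjusted p = 0.000667). With 15 reads in the 3 blood libraries together, counting error alone put the ratio of parenchyma to blood, 148, between 89.8 and 266 (exact 95% binomial interval). The differences within the CNS rest on more reads. Meninges exceeded CSF by 2.45 (SE 0.28, adjusted p = 0.000324), parenchyma exceeded meninges by 1.91 (SE 0.23, adjusted p = 0.000290) and parenchyma exceeded CSF by 4.36 (SE 0.27, adjusted p = 2.44e-07).

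Tnf was readily detected in blood too. It stood at 150.1, 263 and 185 CPM in parenchyma, 83.4, 118 and 77.4 CPM in meninges, 24.6, 16.2 and 34.8 CPM in CSF, and 19.6, 16.2 and 21.8 CPM in blood, where 283 to 346 reads were counted per library. The CSF and blood libraries overlapped, with CSF replicate 2 at the level of blood replicate 2. The meninges libraries lay above all CSF libraries, and the parenchyma libraries above all meninges libraries.

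Mean Tnf was 199 ± 57.8 CPM (SD, n = 3) in parenchyma, 92.8 ± 21.7 in meninges, 25.2 ± 9.35 in CSF and 19.2 ± 2.85 in blood. CSF exceeded blood by a log2 fold of 0.38 (SE 0.27, adjusted p = 0.289, edgeR), with a 95% interval of -0.20 to 0.97. A nearly 2-fold higher level in CSF than in blood is thus within the error. Leaving the filter off gave an adjusted p of 0.00123 for the same comparison, at a similar log2 fold of 0.42 but an SE of 0.11. That fit set the low end of the range over all alternatives, 0.00123 to 0.799. Meninges exceeded CSF 3.71-fold (log2 1.89, SE 0.26, adjusted p = 0.00160). Against blood the log2 fold was 2.28 in meninges (SE 0.27, adjusted p = 2.76e-05) and 3.38 in parenchyma (SE 0.28, adjusted p = 4.32e-07). Parenchyma exceeded CSF by a log2 fold of 3.00 (SE 0.27, adjusted p = 4.52e-06). Tnf was 2.15-fold higher in parenchyma than in meninges (log2 1.10, SE 0.25, adjusted p = 0.0117). That call depended on single libraries, with a log2 fold change of 0.85 and adjusted p = 0.0577 without parenchyma replicate 2, and 0.99 and adjusted p = 0.0605 without meninges replicate 3.

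In the parenchyma libraries Il2 had 132, 178 and 104 reads, or 8.74, 12.04 and 5.87 CPM. The meninges libraries had 12, 25 and 10 reads, or 1.04, 2.01 and 0.631 CPM. The CSF libraries had 11, 2 and 7 reads, or 0.495, 0.10 and 0.493 CPM, and the blood libraries 10, 5 and 3 reads, or 0.565, 0.286 and 0.221 CPM. Parenchyma and meninges stood apart from each other and from the rest, while CSF and blood overlapped.

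Mean Il2 was 8.88 ± 3.09 CPM (SD, n = 3) in parenchyma, 1.23 ± 0.706 in meninges, 0.363 ± 0.227 in CSF and 0.357 ± 0.183 in blood. Parenchyma exceeded meninges 7.34-fold (log2 2.88, SE 0.42, adjusted p = 0.000918, edgeR), CSF by a log2 fold of 4.61 (SE 0.47, adjusted p = 1.49e-05) and blood by 4.56 (SE 0.48, adjusted p = 4.55e-06). For CSF against blood the log2 difference of -0.04 (SE 0.70, adjusted p = 0.966) had a 95% interval of -1.54 to 1.45, which leaves room for nearly 3-fold differences either way. Without blood replicate 1 it was 0.46, and without CSF replicate 2 it was 0.42.

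The meninges level of Il2 is the least certain of these values. It exceeded blood by a log2 fold of 1.69 (SE 0.60, adjusted p = 0.0421, edgeR), but the call was lost without any 1 of 5 libraries. The adjusted p was 0.105 without blood replicate 2 and 0.117 without blood replicate 3. It was 0.0522 without parenchyma replicate 1, 0.0664 without meninges replicate 1 and 0.205 without meninges replicate 2. Over all alternatives it ran from 0.000303, with no filter and an SE of 0.40 in place of 0.60, to 0.363. Without meninges replicate 2 and blood replicate 3 together, which had the largest shares of multiply aligned reads, the log2 fold change was 0.94 (adjusted p = 0.363). Against CSF, Il2 in meninges was higher by 1.73 (SE 0.58, adjusted p = 0.158). That difference passed the threshold when library number was kept as a block (log2 1.77, adjusted p = 0.0416). Over all alternatives the adjusted p ran from 0.000951, with no filter and an SE of 0.39 in place of 0.58, to 0.395.

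**Figure D2:**
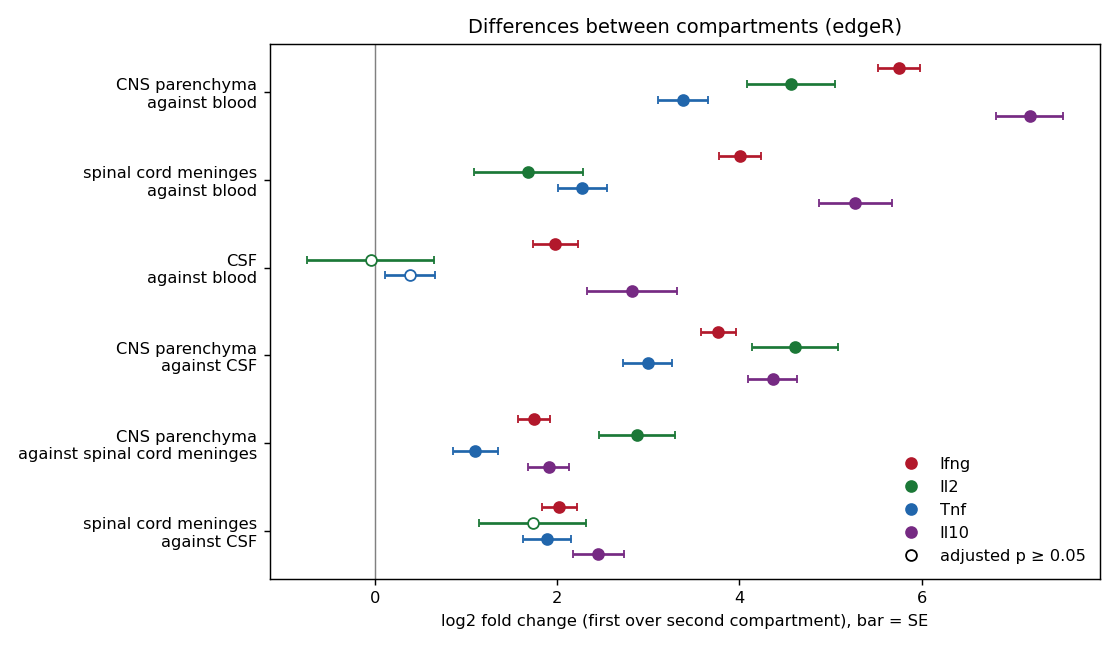
Log2 fold change of each cytokine gene in the 6 comparisons, first-named over second-named compartment, with bars for the SE of the edgeR fit and open symbols where the adjusted p was 0.05 or more. Il10 lies farthest right in the 3 comparisons with blood (7.19, 5.27 and 2.82), while Il2 lies farthest right for parenchyma against meninges (2.88).

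These changes were set against those of all genes tested. In parenchyma against blood, the 4 genes were called higher, as were 24.6% of genes tested, and in meninges against blood likewise all 4, as were 16.6% of genes tested. In CSF against blood, Ifng and Il10 were called higher, against 17.5% of genes tested. Ifng, Tnf and Il10 were called higher in meninges than in CSF, as were 1.97% of genes tested, and all 4 genes in parenchyma than in meninges, as were 6.58%. In parenchyma against CSF, all 4 were called higher, as were 17.1% of genes tested. With library number as a block, the genes called in either direction numbered 1046 for meninges against CSF, where 289 were called without it, and 2428 for parenchyma against meninges, where 1375 were called. All 3 libraries of the first compartment lay above all 3 of the second for all 4 genes in parenchyma against blood (28.1% of genes tested), meninges against blood (23.5%), meninges against CSF (11.5%), parenchyma against CSF (22.1%) and parenchyma against meninges (15.4%), and for Ifng and Il10 in CSF against blood (23.7%). An F test for any difference among the 4 compartments called all 4 genes and 53.8% of genes tested, with adjusted p-values of 2.35e-09 for Ifng, 2.40e-06 for Il2, 5.72e-07 for Tnf and 1.42e-08 for Il10 (edgeR). Since Il2 and Il10 passed the filter through the groups where they are high, these counts are a description.

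By size of log2 fold change, Il10 ranked 10 among the 11498 genes tested in parenchyma against blood, Ifng 28, Il2 59 and Tnf 127. Il10 and Il2 were among the genes ranked only through the compartments where they are high. They had 15 and 18 reads in blood, so their ranks are a description. In meninges against CSF, Il10 ranked 54, Ifng 87, Tnf 96 and Il2 118. In parenchyma against meninges Il2 came first of the 4 at rank 31, before Il10 at 71, Ifng at 83 and Tnf at 174. As Il2 passed the filter through parenchyma and had 47 reads in meninges, its place there is a description too. In CSF against blood the genes separated, with Il10 at rank 37 and Ifng at 117, but Tnf at 1787 and Il2 at 6070. The median log2 fold change of all genes tested lay between -0.02 and 0.00 in the 6 comparisons.

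**Figure D3:**
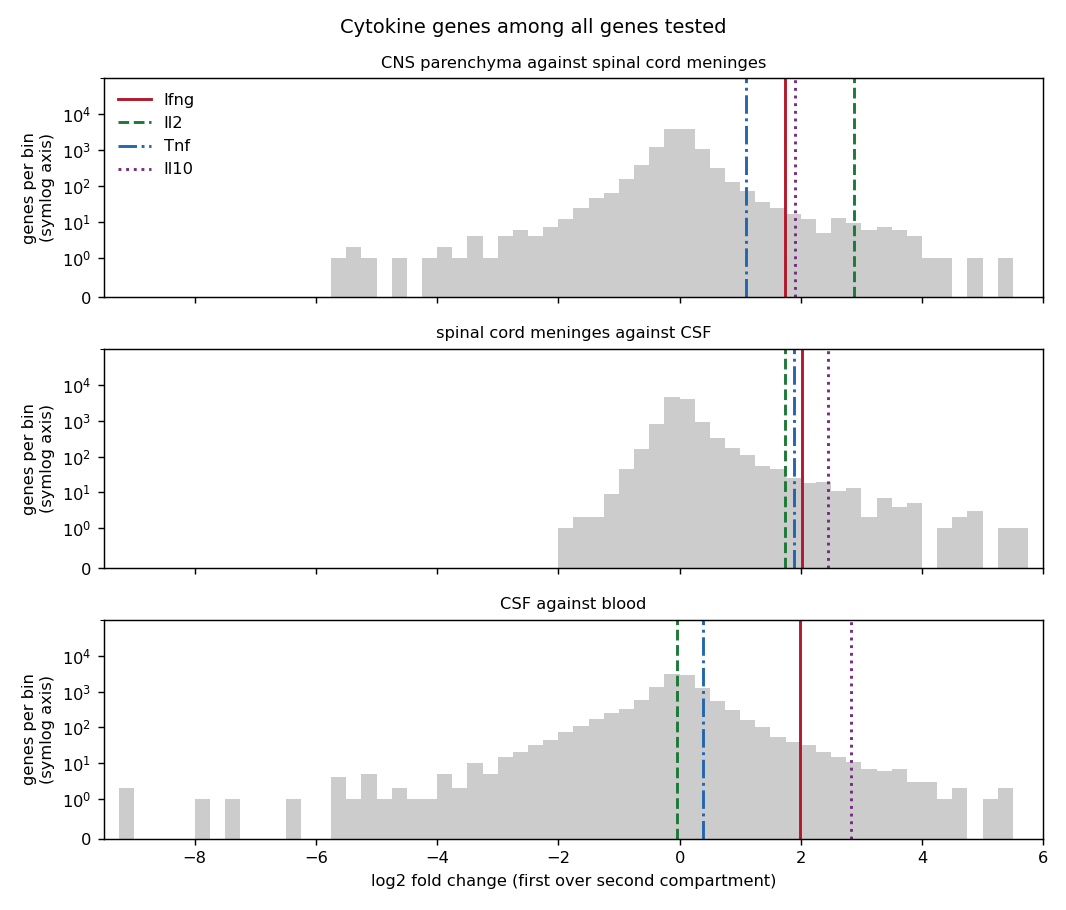
Histograms of the log2 fold changes of all 11498 genes tested (bins of 0.25, symmetric log axis for the number of genes) in parenchyma against meninges, meninges against CSF and CSF against blood, with a vertical line for each cytokine gene. In the CSF against blood panel Il2 and Tnf lie within the bulk of genes, at -0.04 and 0.38, and Il10 lies farthest right of the 4 at 2.82.

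The balance among the cytokines also differed between compartments. The ratio of the counts of 2 genes within a library needs no scaling between libraries, and gene length cancels when 1 ratio is compared between compartments. Tnf reads per Il10 read were 3.56, 4.96 and 4.35 in parenchyma, 5.88, 12.7 and 5.87 in meninges, 10.5, 15.3 and 9.90 in CSF, and 69.2, 47.2 and 74.2 in blood. The ratio was highest in the blood libraries and lowest in the parenchyma libraries, with no overlap between parenchyma and any other compartment. The ratio differed over the 4 compartments in an exact permutation test on log2 ratios (p = 0.000584, adjusted over 6 ratios to 0.00331, 12 libraries, smallest possible p 6.49e-05).

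The ratio of Ifng to Tnf was lowest in blood and highest in parenchyma. Ifng reads per Tnf read were 0.827, 0.762 and 0.721 in parenchyma, 0.620, 0.377 and 0.526 in meninges, 0.464, 0.568 and 0.376 in CSF, and 0.130, 0.219 and 0.104 in blood (exact permutation p = 0.00110, adjusted 0.00331). Meninges and CSF overlapped in this ratio, while parenchyma lay above both and blood below both. The log2 difference in this ratio was 1.69 for CSF against blood and 0.63 for parenchyma against meninges. In exact two-sided permutation tests each of these pairwise differences had a p of 0.1, which is the minimum for groups of 3. Since the libraries did not overlap in either comparison, the same direction within all 3 library numbers follows from that. The exact sign-flip permutation test within library numbers gave a p of 0.25, the minimum for 3 pairs, and adds no support.

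Ifng and Il10 kept closer to each other. There were 2.94, 3.78 and 3.14 Ifng reads per Il10 read in parenchyma, 3.65, 4.8 and 3.09 in meninges, 4.88, 8.71 and 3.72 in CSF, and 9, 10.3 and 7.75 in blood (exact permutation p = 0.0103, adjusted 0.0155). Parenchyma, meninges and CSF overlapped one another, and CSF replicate 2 reached into the blood range. Il2 reads per Tnf read were 0.0583, 0.0458 and 0.0317 in parenchyma, 0.0125, 0.0171 and 0.00815 in meninges, 0.0201, 0.00621 and 0.0141 in CSF, and 0.0289, 0.0177 and 0.0101 in blood (exact permutation p = 0.0345, adjusted 0.0345). Only the parenchyma libraries stood above the rest in that ratio. With 2 to 25 Il2 reads in each library outside the parenchyma it is imprecise, and the adjusted p was over 0.05 when any 1 of 6 libraries was left out, up to 0.119 without parenchyma replicate 1. The Il2 to Il10 ratio (adjusted p = 0.0112) and the Ifng to Il2 ratio (adjusted p = 0.0238) also differed by the exact permutation test. In blood, all ratios to Il10 rest on 4 to 6 Il10 reads per library and those with Il2 on 3 to 10 Il2 reads, so they are imprecise. For Ifng to Il2 the adjusted p was 0.0660 when compartments were permuted only among libraries of the same number, 0.0765 without blood replicate 1 and 0.0516 without meninges replicate 1.

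**Figure D4:**
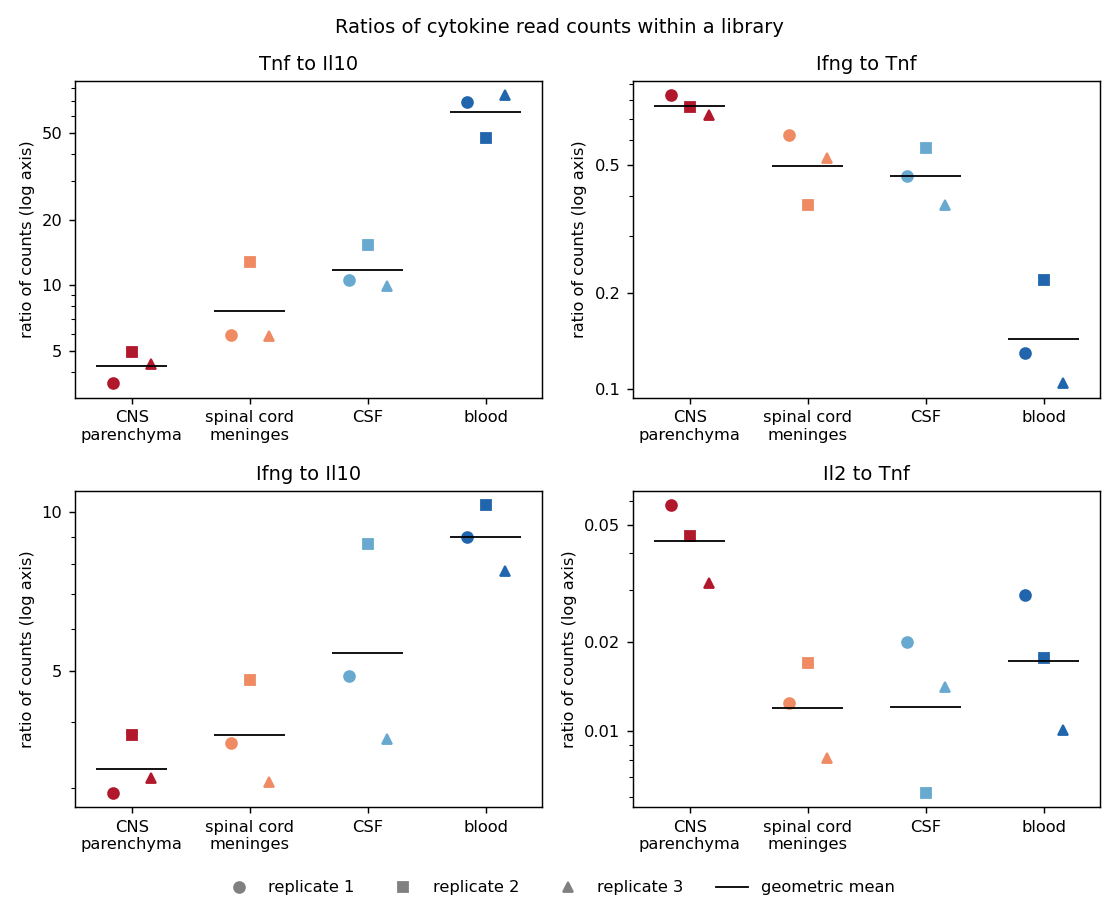
Ratio of the read counts of 2 cytokine genes within each library (log axis), by compartment, with marker shapes for the library numbers and a line at the geometric mean of 3 libraries. Tnf to Il10 is lowest in parenchyma (3.56 to 4.96) and highest in blood (47.2 to 74.2, on 4 to 6 Il10 reads per library). Il2 to Tnf is highest in parenchyma (0.0317 to 0.0583).

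In parenchyma 1 library was highest for all 4 genes and in CSF 1 was lowest for all 4, while no library of meninges or blood was highest or lowest for all 4. Parenchyma replicate 2 had the highest value of all 4 genes among parenchyma libraries, and CSF replicate 2 the lowest of all 4 among CSF libraries. In meninges, replicate 2 was highest for Tnf and Il2 but lowest for Il10, and replicate 1 was highest for Ifng and Il10. In blood, replicate 2 was highest for Ifng and Il10 and lowest for Tnf. The biological coefficient of variation estimated by edgeR was 15.6% for Ifng, 21.0% for Il10, 21.7% for Tnf and 32.9% for Il2. The common value over all genes was 10.7%. It is not matched to genes of similar level, so the higher values are not read as a trait of the 4 genes.

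Across the 12 libraries Ifng and Il10 had the most similar profiles. Pearson's r of their log2 CPM was 0.993, as a description over libraries of 4 separate groups. Such an r compares the shape of profiles and not the level or the size of the folds. Of 9015 other genes with a mean of at least 5 CPM, 2 were as close to Ifng as Il10 was and 1 was as close to Il10 as Ifng was. An r of 0.95 or more was reached by 149 of these genes with Ifng and by 144 with Il10. Tnf had an r of 0.95 with Ifng and 0.95 with Il10, and 147 genes were at least as close to Ifng as Tnf was. Il2 was closest to Tnf of the other 3 (r = 0.93), with 94 genes at least as close, and had an r of 0.87 with Ifng and 0.86 with Il10. The gene closest to Ifng was ENSRNOG00000018484 (r = 0.997), at 169 ± 21.7 CPM (SD, n = 3) in parenchyma, 89.7 ± 7.50 in meninges, 41.4 ± 0.812 in CSF and 21.5 ± 1.59 in blood. The gene closest to Il10 was ENSRNOG00000018108 (r = 0.995), at 706 ± 88.2 CPM in parenchyma, 330 ± 37.0 in meninges, 125 ± 26.9 in CSF and 53.2 ± 4.23 in blood. The files give no name for either, so nothing is said of what they are.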

How the data were processed

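The authors deposited one file per library with raw, whole-number read counts for each Ensembl rat gene. Tools named in the submitters' processing notes are DESeq2, HTSeq, SAMtools, STAR and CASAVA 1.8.2, with no role stated. For the genome build, the annotation and the use of strand, the entry is "not given in the sources used here". The 5 summary lines closing each file entered neither library sizes nor tests. Reads outside any gene made up 15.5% to 21.9% of entries. Only reads aligned to 1 place were counted, per the summary lines.

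The 4 genes and all lists were chosen with earlier results of these data known. The 14 further gene lists and the naming of genes of similar profile need gene names. The reference table has an Ensembl identifier in 0 of 47357 rows, so these lists were not used and at most 2 other identifiers are printed. The symbols of the 4 genes come with the identifiers used to select them.

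The analysis used edgeR 4.0.16 in R 4.3.3, with filterByExpr (minimum count 10), TMM scaling and 1 quasi-likelihood fit of all 12 libraries with compartment as the only term. Tests were two-sided contrasts with Benjamini-Hochberg adjustment over 11498 genes. SEs were derived from the F statistic, and 95% intervals from these SEs. An F test covered any difference among the 4 compartments. CPM are TMM-scaled, and log2 CPM for profiles used a prior count of 2. The edgeR functions were checked on simulated counts with known changes. Counting intervals and the floor of 3 reads cover counting error only, as reads carry no molecular identifiers.

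Library numbers come from the titles. Deviations of same-numbered libraries from their group means correlated at 0.149 or more over genes in all 3 pairs of 5 comparisons. For meninges against blood 1 of the 3 pairs was at 0.0766. The labels do not say what the numbers mark, and libraries of different number were not compared in this way. The numbers may pair the libraries, but this was not settled. The main tests did not pair them, and library number as a block was an alternative. The exact permutation tests of count ratios, over 15400 arrangements of 12 libraries, were chosen after seeing the data, as was their repeat with compartments permuted only within a library number (13824 arrangements) and the sign-flip test of pairwise ratio differences within library numbers. Alternatives were DESeq2 1.42.0, RLE scaling, library size alone, no filter, fits of only the 2 groups compared, a threshold of 0.01, library number as a block, leaving out each library, and leaving out meninges replicate 2 and blood replicate 3 together.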

Additional observations from a re-analysis of the deposited data

How the results depend on the processing

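Over 20 alternatives, all 6 differences of Ifng and of Il10 kept their direction and their side of the threshold, as did those of Tnf and Il2 in parenchyma against blood and against CSF, of Il2 in parenchyma against meninges, and of Tnf in meninges against blood and against CSF. The tests over the 4 compartments also stayed past the threshold wherever they could be made. Of the 20 alternatives, 12 left out 1 library each, in part from neither compartment compared, and the threshold of 0.01 reused the main fit. They are therefore not 20 independent checks. With a library left out, Il2 in meninges against blood ran from 1.14 to 2.19 on the log2 scale and Tnf in parenchyma against meninges from 0.85 to 1.31. For Il2 in CSF against blood, never past the threshold, the range was -0.44 to 0.46. At a threshold of 0.01 these calls were lost by construction for Il2 in meninges against blood (1.69) and Tnf in parenchyma against meninges (1.10). Without meninges replicate 2 and blood replicate 3 together, Il2 in meninges against blood was 0.94 and not called. With library number as a replicate block Il2 in meninges against CSF was called (1.77), as it was by DESeq2 (1.75) and with no filter (1.71). Without the filter Tnf in CSF against blood was called (0.42), with an SE of 0.11 in place of 0.27. That fit gave smaller SEs for all 4 genes in the 6 comparisons, so its adjusted p-values were far lower at similar folds. The replicate block changed no other call of the 4 genes. With it the adjusted p of the ratios was 0.0660 for Ifng to Il2, no longer past the threshold, and 0.0104 to 0.0417 for the other 5 ratios (exact permutation tests, smallest possible unadjusted p 0.00174). Apart from the thresholds and the library sets, the cause was not tested.

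Counts of genes called in meninges against CSF were 1046 with the replicate block, 890 with no filter, 501 by DESeq2 and 107 at a threshold of 0.01, against 289, and 126 to 315 with a library left out. In parenchyma against meninges they were 2428 with the block, 539 at 0.01 and 764 without meninges replicate 2 and blood replicate 3 together, against 1375, and 739 to 1739 with a library left out. At 0.01, where 0.05 gave 4095, 4310 and 3759, the counts were 2649 for meninges against blood, 2725 for CSF against blood and 2276 for parenchyma against CSF. By Spearman's rho, 11 genes were as close to Ifng as Il10 was and 8 as close to Il10 as Ifng was, against 2 and 1 by Pearson's r. With fits of only 2 groups, Il2 did not pass the filter in the 3 comparisons without parenchyma. Depth limits Il2 in all compartments but the parenchyma and Il10 in blood.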
